A study of Mus musculus with 6 samples.

Results

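The Toll-like receptors (TLRs) Tlr1, Tlr2, Tlr3, Tlr4, Tlr6, Tlr7 and Tlr9, the TLR homologue Cd180, the transport protein Unc93b1 and the adaptor Myd88 were measured in sorted peritoneal cavity (PC) B1a cells of 2 genotypes of mice. Members were every non-control probe on the array that carries 1 of these 10 gene symbols, which gave 12 of 55681 probes and 10 of 36163 gene names. The knockout group was p40-/-CD25-/- and the control group was its littermate p40-/-CD25+/-, both on C57Bl/6, all females of 7 weeks, with 3 arrays per genotype. CD25 is IL-2Rα (Il2ra), the high-affinity chain of the interleukin-2 receptor, and p40 (Il12b) is the shared chain of interleukin-12 and interleukin-23, which both groups lack. Each sample was pooled from at least 3 mice, so single animals were not resolved. The deletions are germline, so CD25 was missing from every cell type of the knockout mice and not from B cells alone. All mice were kept under specific pathogen free conditions, and no treatment is named. The p40-/-CD25-/- strain develops autoimmune cholangitis and is used as a model of primary biliary cholangitis.

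TLRs are pattern recognition receptors that detect microbial products. Tlr2 pairs with Tlr1 or Tlr6 at the cell surface to bind bacterial lipopeptides, Tlr4 with Ly96 (MD-2) binds lipopolysaccharide, and Tlr3, Tlr7 and Tlr9 read nucleic acids in endosomes, where the chaperone Unc93b1 delivers them. Cd180 (RP105) with Ly86 (MD-1) is a TLR-like receptor of B cells. Myd88 is the adaptor of the TLRs, with the exception of Tlr3, which uses Ticam1 (TRIF). B1a cells are self-renewing B cells of the body cavities that respond readily to TLR ligands with natural antibody and interleukin-10.

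Each probe is a 60-base oligonucleotide, and what it reads is limited to the stretch of transcript it matches. The probes of Tlr1 and Tlr2 are shown first because these genes are paralogues, and the 2 probes meet in the same part of the coding region, the last conserved box of the intracellular TIR domain through which TLRs bind adaptors. Capitals mark bases that are identical in the best ungapped stretch between the 2 probes, 15 of 18 positions. Both are given 5′ to 3′ on the transcript strand, and the coordinates, as in the array files, are in mm9 on the minus strand, chr5:65316115-65316174 for Tlr1 and chr3:83640344-83640403 for Tlr2.
Tlr1: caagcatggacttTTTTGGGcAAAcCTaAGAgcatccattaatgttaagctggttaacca
Tlr2: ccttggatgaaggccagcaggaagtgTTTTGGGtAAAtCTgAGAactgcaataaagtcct
The longest run of bases that any 2 probes of the 12 had in common was 10, between 2 probes of Tlr7. The probes were compared with each other and not with the transcripts of paralogues, so binding to a paralogue's transcript was not tested. For the other probes on which the comparisons turn, only the first 30 of the 60 bases are shown, with the whole probe at chr9:106128979-106129038 for Tlr9 and chr13:103496269-103496328 for Cd180 on the plus strand, and at chr5:65344365-65344424 for Tlr6 and chr9:119245322-119245381 for Myd88 on the minus strand.
Tlr9: ctggttcccgagttgctctgcctgccttgc
Cd180: gcacttgctcaaacatttactttttagaat
Tlr6: ttatgaagttagccttagtcaatgaggatg
Myd88: ggtttgcatcttcttattcctttcacgttc
Tlr1 and Tlr6 are neighbouring genes, and their probes start 28250 bases apart on chromosome 5. Of the remaining probes, Tlr4 lies at chr4:66503470-66503529 and Unc93b1 at chr19:3949081-3949140 on the plus strand, and Tlr3 at chr8:46481729-46481788 on the minus strand. Tlr7 has 3 probes on the minus strand of the X chromosome, A_55_P2050932 at chrX:163742863-163742922, A_55_P2129047 at chrX:163743146-163743205 and A_55_P2129046 at chrX:163747214-163747273. The files place the first 2 in the transcript NM_133211 and the last in ENSMUST00000112161, 4068 bases upstream of the nearer of the other two.

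Before the comparisons, the samples were checked as a whole. All values are log2 processed signal minus the 75th percentile of the array, so 0 is that percentile and a difference of 1 is 2-fold. The 75th percentile itself was 252 to 272 on the control arrays and 66.5 to 162 on the knockout arrays, with knockout 2 dimmest, and 47.2% to 50.6% and 39.7% to 45.9% of spots were well above background. Il2ra, the deleted gene, was 1.62, 1.13 and 1.35 in the controls and -0.31, -0.59 and 0.86 in the knockouts (log2 difference -1.38, SE 0.37, 95% interval -2.24 to -0.52, limma adjusted p = 0.119), with no overlap, and knockout 3 was nearest to the controls. The Il2ra probe starts at base 4350 of its transcript, and whether it lies within the deleted part is not given in the sources used here. Il12b, the gene of p40, which both groups lack, was -1.92, -2.01 and -2.25 in the controls and -2.52, -1.91 and -1.80 in the knockouts, dim but well above background on all 6 arrays, with an overlap, and whether its probe lies within the deleted part is not given either. The B cell genes Cd79a, Cd79b and Ms4a1 were bright on all 6 arrays, for example Cd79b at 9.03, 9.18 and 8.90 in the controls and 9.49, 9.25 and 9.21 in the knockouts. Over the list of B cell genes, 7 of 11 tested probes were higher and 4 lower in the knockout, 3 and 1 of them without overlap. The Cd22 probe A_55_P2163795 passed the adjusted p (difference 1.36, limma adjusted p = 0.0463). This probe was dim, with a processed signal of 32, 32 and 31 in the controls and 37, 24 and 48 in the knockouts. The brighter Cd22 probe, A_55_P2016004, differed by 0.12 with an overlap (limma adjusted p = 0.640). Over the list of B1a genes, 8 of 13 were higher and 5 lower, 6 and 2 of them without overlap. Of all tested probes, 15.6% were higher and 19.5% lower without overlap. Macrophage genes were measured as well, 14 of 18 by a tested probe, with a log2 summed level of 5.76 to 7.52 on the control arrays and 5.79 to 6.74 on the knockout arrays. Cd163 and Clec4f were not well above background on any array. The sum was 7.52 on control 1 and 6.74 on knockout 2, and of the 17 tested macrophage probes 8 were highest on control 1 and 7 on knockout 2. By genotype, 13 of the 17 were lower in the knockout, with a median log2 difference of -0.24, and 1 of the 13, Fcgr1, passed the filter through the control arrays alone. Retnla was 4.14, 2.64 and 1.43 in the controls and -0.10, -1.65 and 0.79 in the knockouts, and Lyz2, the lysozyme of myeloid cells, was 2.56, 2.91 and 1.31 in the controls and 1.03, 1.46 and 1.05 in the knockouts. Both passed the 2-fold thresholds of the study, and Retnla did not overlap. T cell genes summed to 3.18 to 3.90 on the control arrays and 3.78 to 4.08 on the knockout arrays, and 6 of 7 tested probes were higher in the knockout. Thy1 was -2.14, -3.29 and -3.75 in the controls and -1.57, -1.73 and 0.51 in the knockouts, without overlap and past the 2-fold thresholds, as was Cd3d with a difference of 1.41 and an overlap. Cd8a was well above background on knockout 3 alone. Of 5 tested probes of granulocyte and mast cell genes, 2 were higher and 3 lower in the knockout. The 2 higher ones, of Camp, did not overlap and passed the 2-fold thresholds, with differences of 1.13 and 1.69. Camp was dim, at -2.77, -2.96 and -3.03 in the controls and -1.82, -1.08 and -2.49 in the knockouts by the probe A_55_P2039699. Mcpt4 was lower past the 2-fold thresholds, with an overlap, and passed the filter through the control arrays alone. The plasma cell gene Igj, the joining chain of secreted antibody, was 2.91, 2.29 and 2.47 in the controls and 0.42, -0.55 and 2.04 in the knockouts, past the 2-fold thresholds. Sdc1, another plasma cell marker, was well above background on the control arrays alone and near that limit there, so no fold is given. In sorted pools, fewer cells of a type and less RNA per cell cannot be told apart.

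Of the 10 genes, 9 were tested, by 10 probes, and no member probe passed an adjusted p of 0.05 or the 2-fold thresholds of the study (at least 2-fold with an unadjusted p of at most 0.05). By limma, 0.0808% of all 24757 tested probes passed the adjusted p, and 3.64% passed the 2-fold thresholds. At an unadjusted p under 0.05, 2 of the 10 member probes, Tlr9 and Cd180, were called, against 24.6% of all tested probes, and the methods' t-test called 0 of 10 at that level, against 21.1% of all tested probes. In 4 of 10 the genotypes did not overlap, Tlr9 and Tlr1 higher and Myd88 and 1 probe of Tlr7 lower in the knockout, against 35.2% of all tested probes (15.6% higher and 19.5% lower). These shares are near those of the whole array, so they are no result about TLR genes as a group. The median log2 difference was -0.11 over the 10 member probes and -0.09 over all tested probes. The members spread from -0.27 for Myd88 to 0.70 for Cd180.

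**Figure D1:**
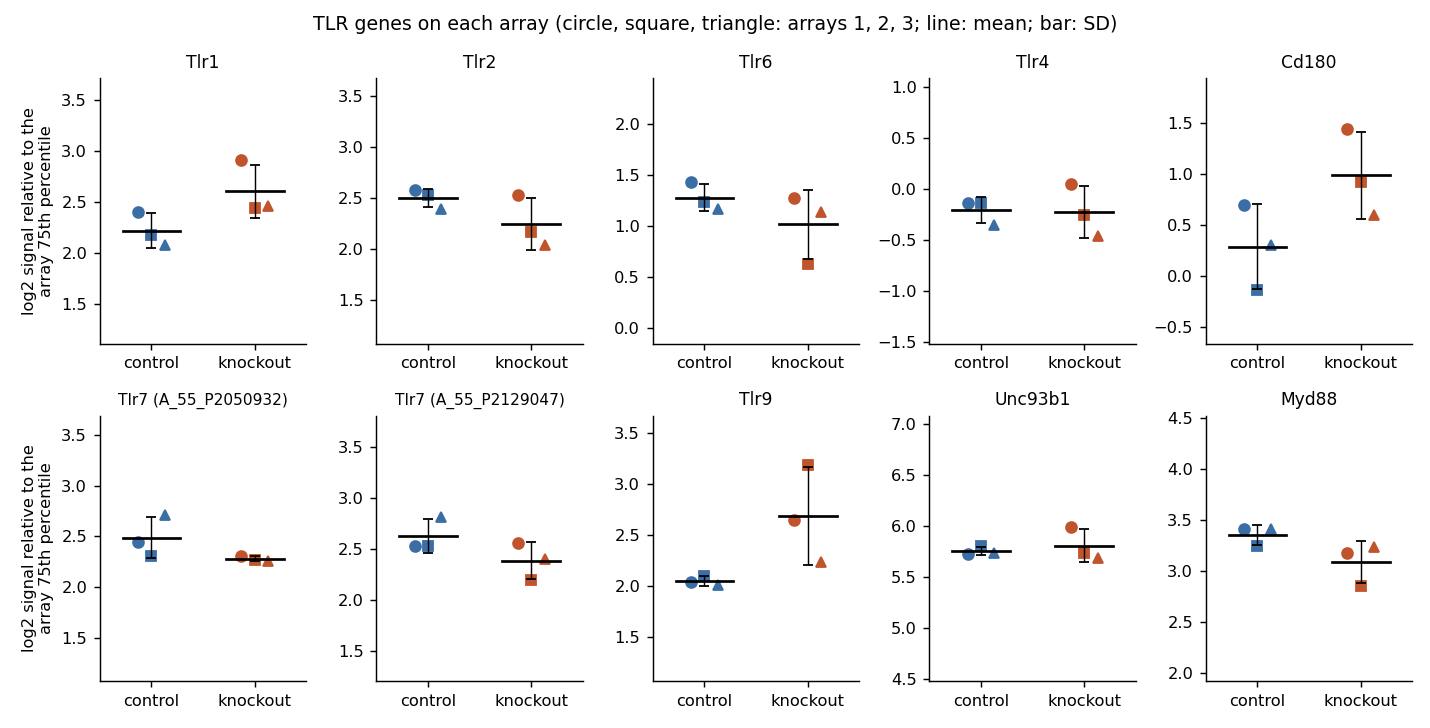
Each panel plots 1 tested probe, with the log2 signal relative to the array's 75th percentile on the vertical axis and 1 point per array; lines are means and bars SD (n = 3), and all panels span the same range. The 3 control arrays of Tlr9 lie between 2.01 and 2.10, below its knockout arrays at 2.65, 3.19 and 2.23.

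Tlr1 and Tlr6, the alternative partners of Tlr2, differed in direction. Tlr1, which joins Tlr2 in the receptor for triacyl lipopeptides, was 2.40, 2.17 and 2.07 in the controls and 2.90, 2.44 and 2.46 in the knockouts. The mean was 2.22 ± 0.17 in the control and 2.60 ± 0.26 in the knockout (SD, n = 3; log2 difference 0.39, SE 0.19, 95% interval -0.052 to 0.82, limma adjusted p = 0.240). All knockout arrays lay above all control arrays, by a margin of less than 0.1 at the closest, and the difference missed the threshold. Tlr6, the partner for diacyl lipopeptides, was 1.43, 1.24 and 1.16 in the controls and 1.27, 0.63 and 1.14 in the knockouts. Its knockout mean was 1.01 ± 0.34 against 1.28 ± 0.13 (log2 difference -0.26, SE 0.20, 95% interval -0.74 to 0.21, limma adjusted p = 0.419), and the 2 genotypes overlapped because knockout 1 lay among the controls. Tlr2 itself was 2.57, 2.53 and 2.40 in the controls and 2.53, 2.16 and 2.04 in the knockouts (log2 difference -0.26, SE 0.17, 95% interval -0.66 to 0.15, limma adjusted p = 0.365). Knockout 1 lay within the range of the controls and the other two knockout arrays were below it. Macrophages also express Tlr2, and their summed level was 7.52, 6.74 and 5.76 in the controls and 5.79, 6.74 and 5.93 in the knockouts. This sum was highest on control 1, as Tlr2 was, but higher on knockout 2 than on knockout 1, where Tlr2 went the other way. The part of macrophages in the Tlr2 values was not tested.

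Tlr2 and Myd88 were each printed on 10 spots of every array, which separates the error of a spot from that between samples. The SD between spots of 1 array was 0.026 to 0.13 for Tlr2 and 0.015 to 0.055 for Myd88, while the SD between the 3 arrays of a genotype was 0.093 and 0.25 for Tlr2 and 0.10 and 0.20 for Myd88. For both genes the spread between knockout samples was larger than that between the spots of any array.

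**Figure D2:**
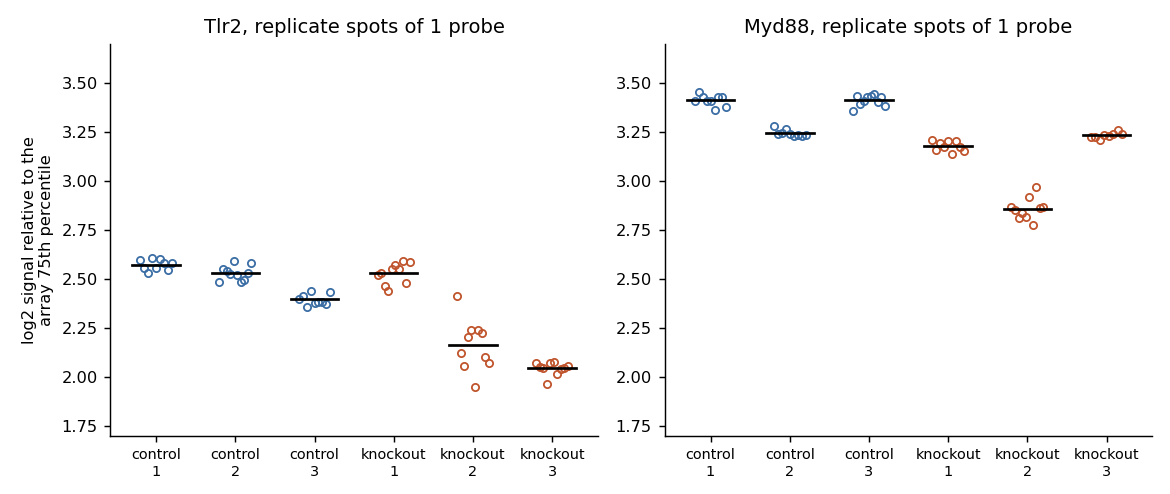
Replicate spots of the Tlr2 probe (left) and the Myd88 probe (right), with the array on the horizontal axis and log2 signal relative to the array's 75th percentile on the vertical axis; lines are array means. Spots of 1 array cluster tightly, and the Tlr2 spots of knockout 2 are the most scattered, with an SD of 0.13.

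Tlr4, the lipopolysaccharide receptor, was -0.14, -0.14 and -0.35 in the controls and 0.044, -0.26 and -0.47 in the knockouts. The values of both genotypes were interleaved (log2 difference -0.017, SE 0.18, 95% interval -0.44 to 0.40, limma adjusted p = 0.958). Its co-receptor Ly96, which holds the lipid, was 2.88, 2.68 and 2.56 in the controls and 2.47, 1.97 and 2.13 in the knockouts, lower on every knockout array than on any control array (log2 difference -0.52, SE 0.18, 95% interval -0.95 to -0.088, limma adjusted p = 0.158). Cd14, which passes lipopolysaccharide to Tlr4 and Ly96 and is abundant in macrophages, was 0.88, -0.0034 and 0.11 in the controls and -0.070, 1.44 and -0.63 in the knockouts. It was highest on knockout 2, as were 7 of the 17 macrophage probes, while the macrophage sum was highest on control 1, and the part of macrophage RNA in its values was not tested. Cd180 was 0.69, -0.14 and 0.30 in the controls and 1.44, 0.92 and 0.60 in the knockouts. Its mean of 0.98 ± 0.42 against 0.29 ± 0.41 was the widest difference among the members (log2 difference 0.70, SE 0.28, 95% interval 0.032 to 1.37, limma adjusted p = 0.193, unadjusted p = 0.042), but knockout 3 lay below control 1. Where arrays of the same replicate number were set against each other, the knockout was higher in 3 of 3 for Cd180, Tlr9 and Tlr1 and lower in 3 of 3 for Tlr2, Tlr6, Myd88 and the Tlr7 probe A_55_P2050932. Tlr4, Unc93b1 and the Tlr7 probe A_55_P2129047 were lower in 2 of 3 and higher in the remaining pair. For Tlr9, Tlr1, Myd88 and the Tlr7 probe A_55_P2050932, 3 of 3 follows from the lack of overlap. The share of all tested probes with 3 of 3 is not given here, so these counts are no result about the members. With the number as a block the limma adjusted p was 0.135 for Cd180. The Cd180 processed signal, before scaling, was 426, 230 and 335 in the controls and 354, 126 and 245 in the knockouts. Without control 2 the Cd180 difference was 0.49 and without knockout 1 it was 0.47. Ly86, which Cd180 needs to reach the surface, was 7.48, 7.46 and 7.58 in the controls and 7.48, 7.15 and 7.33 in the knockouts (log2 difference -0.19, SE 0.15, 95% interval -0.54 to 0.16, limma adjusted p = 0.429).

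Among the endosomal receptors, Tlr9 and Tlr7 lay on opposite sides of zero. Tlr9, the receptor for unmethylated CpG DNA, was 2.03, 2.10 and 2.01 in the controls and 2.65, 3.19 and 2.23 in the knockouts. The controls agreed closely, 2.05 ± 0.045 (SD, n = 3), and the knockouts did not, 2.69 ± 0.48 (log2 difference 0.64, SE 0.24, 95% interval 0.071 to 1.21, limma adjusted p = 0.174, unadjusted p = 0.032). Every knockout array was above every control array. The 3 knockout values of Tlr9 stood in the reverse order of the arrays' brightness, highest on knockout 2, the dimmest, and lowest on knockout 3, the brightest, and the part of array brightness in them was not tested. The Tlr9 difference was 0.39 without knockout 2 and 0.87 without knockout 3. Plasmacytoid dendritic cells also express Tlr9, and 1 probe of their marker Siglech was 6.00, 6.05 and 5.93 in the controls and 6.33, 6.99 and 6.17 in the knockouts, highest on the same array as Tlr9. Ccr9, a homing receptor of the same cells that lymphocytes can carry too, went the other way, 2.25, 3.01 and 2.43 in the controls and 2.23, 1.93 and 1.96 in the knockouts by the probe A_52_P30312, and -0.27 as a difference by A_55_P2308239, neither with overlap. The other two Siglech probes, and Xcr1 and Clec9a of other dendritic cells, were not well above background on any array, 3 of 17 dendritic cell probes were tested with a median difference of -0.27, and their part in the Tlr9 values was not tested. In processed signal, Tlr9 was 1079, 1080 and 1095 in the controls and 821, 606 and 759 in the knockouts.

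Tlr7, the receptor for single-stranded RNA, was read by 2 bright probes that start 283 bases apart. The probe A_55_P2050932 was 2.44, 2.31 and 2.71 in the controls and 2.31, 2.27 and 2.26 in the knockouts (log2 difference -0.21, SE 0.16, 95% interval -0.57 to 0.16, limma adjusted p = 0.409). Its knockout arrays lay just below the controls, with an SD of 0.024. The probe A_55_P2129047 was 2.53, 2.54 and 2.82 in the controls and 2.56, 2.20 and 2.41 in the knockouts (log2 difference -0.24, SE 0.17, 95% interval -0.63 to 0.15, limma adjusted p = 0.373), and its genotypes overlapped. The difference between both probes on 1 array changed by 0.033 between genotypes (two-sided exact permutation p = 0.900, where 3 arrays against 3 allow no p below 0.1). The Tlr7 probe A_55_P2129046 was well above background on 1 control array and on no knockout array, and was not tested. Tlr3, the receptor for double-stranded RNA, was not well above background on any array, with a processed signal of 2.58 to 10.2 on the control arrays and 2.69 to 2.94 on the knockout arrays, so no difference of Tlr3 was detectable.

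Unc93b1, which carries the endosomal receptors from the endoplasmic reticulum, was 5.73, 5.80 and 5.73 in the controls and 5.99, 5.74 and 5.69 in the knockouts (log2 difference 0.052, SE 0.15, 95% interval -0.30 to 0.40, limma adjusted p = 0.835). Its groups overlapped and its control SD was 0.040. Myd88, the shared adaptor, was 3.41, 3.25 and 3.41 in the controls and 3.18, 2.86 and 3.23 in the knockouts (log2 difference -0.27, SE 0.16, 95% interval -0.65 to 0.11, limma adjusted p = 0.318). All knockout arrays were below all controls, by less than 0.1 at the closest. The Myd88 difference shrank to -0.056 with quantile normalization, -0.058 with normexp and quantile normalization and -0.073 in the deposited values, and to -0.15 without knockout 2. After normexp correction and scaling to the 75th percentile, the Myd88 difference was -0.53 with a limma adjusted p of 0.0419, the single member value past the threshold in any of 19 alternatives; 9334 of 24757 probes passed in that setting.

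**Figure D3:**
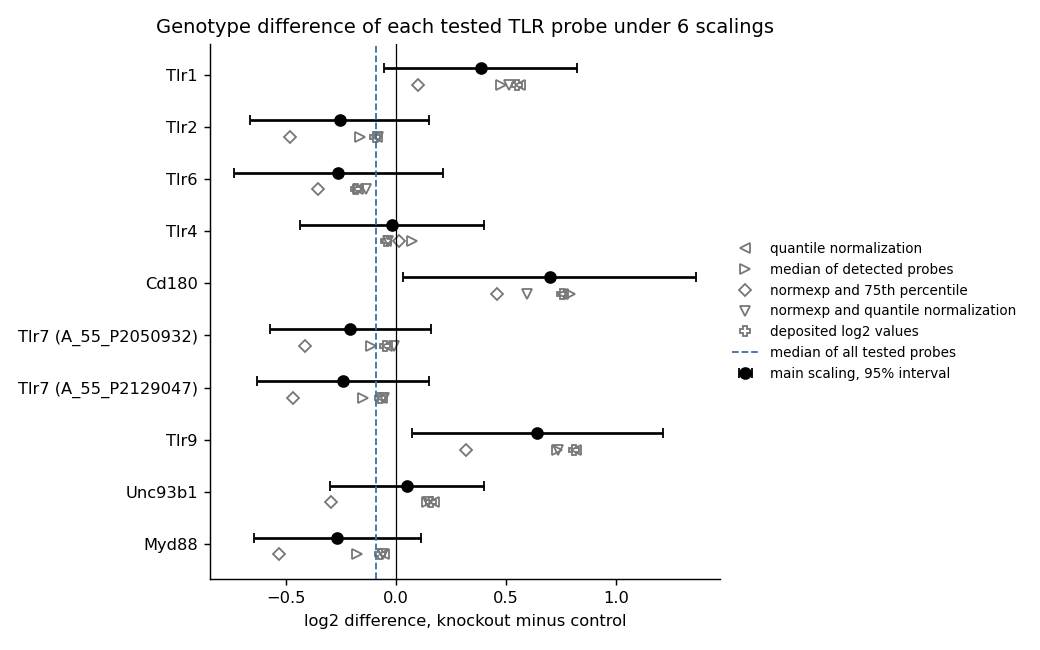
The log2 difference, knockout minus control, of each tested probe, with its 95% interval (black) and the value under 5 other scalings (grey); the dashed line marks the median of all tested probes. The intervals of Tlr9 (0.071 to 1.21) and Cd180 (0.032 to 1.37) are the ones that leave out 0, and the grey points of Tlr4 and Unc93b1 fall on both sides of it.

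Differences between 2 genes on the same array do not depend on the value that scales the array, so 10 pairs of partner genes were compared in this way. For Tlr7 the brighter probe, A_55_P2129047, was used. The pairs follow known partnerships but were chosen after the values were seen, some share a gene, and they are given as descriptions with no test. The size of such a difference is no comparison of 2 levels, since probes differ in efficiency, and what it shows is whether the 2 genes shifted unequally between genotypes. Tlr1 minus Tlr6 was 0.98, 0.94 and 0.91 in the controls and 1.63, 1.81 and 1.32 in the knockouts. The groups did not overlap, and the shift was 0.65, or 0.45 to 0.73 under 4 other treatments of the signal. Tlr1 minus Tlr2 was -0.17, -0.36 and -0.32 in the controls and 0.38, 0.28 and 0.41 in the knockouts, a shift of 0.64 (0.58 to 0.65 under the same 4). Tlr6 minus Tlr2 was -1.15, -1.30 and -1.23 in the controls and -1.25, -1.53 and -0.91 in the knockouts, which overlapped. The shift of -0.0062 ran from -0.086 to 0.13 under the other 4 treatments and was -0.17 without knockout 3 and 0.14 without knockout 2, so its direction was not settled. The SD of the Tlr1 to Tlr2 difference was 0.10 in the control and 0.069 in the knockout.

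In the endosomal set, Tlr9 minus Tlr7 was -0.50, -0.44 and -0.81 in the controls and 0.090, 0.99 and -0.18 in the knockouts. The groups did not overlap, and the shift was 0.88 (0.79 to 0.88 under the other 4 treatments). Tlr9 minus Unc93b1 was -3.69, -3.70 and -3.72 in the controls and -3.34, -2.55 and -3.46 in the knockouts, a shift of 0.59, and Tlr7 minus Unc93b1 shifted by -0.29, the opposite sign (-0.23 to -0.17 under the other treatments and -0.19 without control 3). Tlr9 minus Myd88 shifted by 0.91 (0.80 to 0.88). Without knockout 2 the shifts were 0.54 against Tlr7, 0.31 against Unc93b1 and 0.54 against Myd88, so this array widened all 3. Cd180 minus Ly86 was -6.78, -7.60 and -7.28 in the controls and -6.04, -6.23 and -6.73 in the knockouts, a shift of 0.89 with no overlap, and Cd180 minus Tlr4 shifted by 0.72, or 0.45 to 0.80 under the other treatments and 0.47 without control 2. Tlr4 minus Ly96 shifted by 0.50 (0.26 to 0.71).

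**Figure D4:**
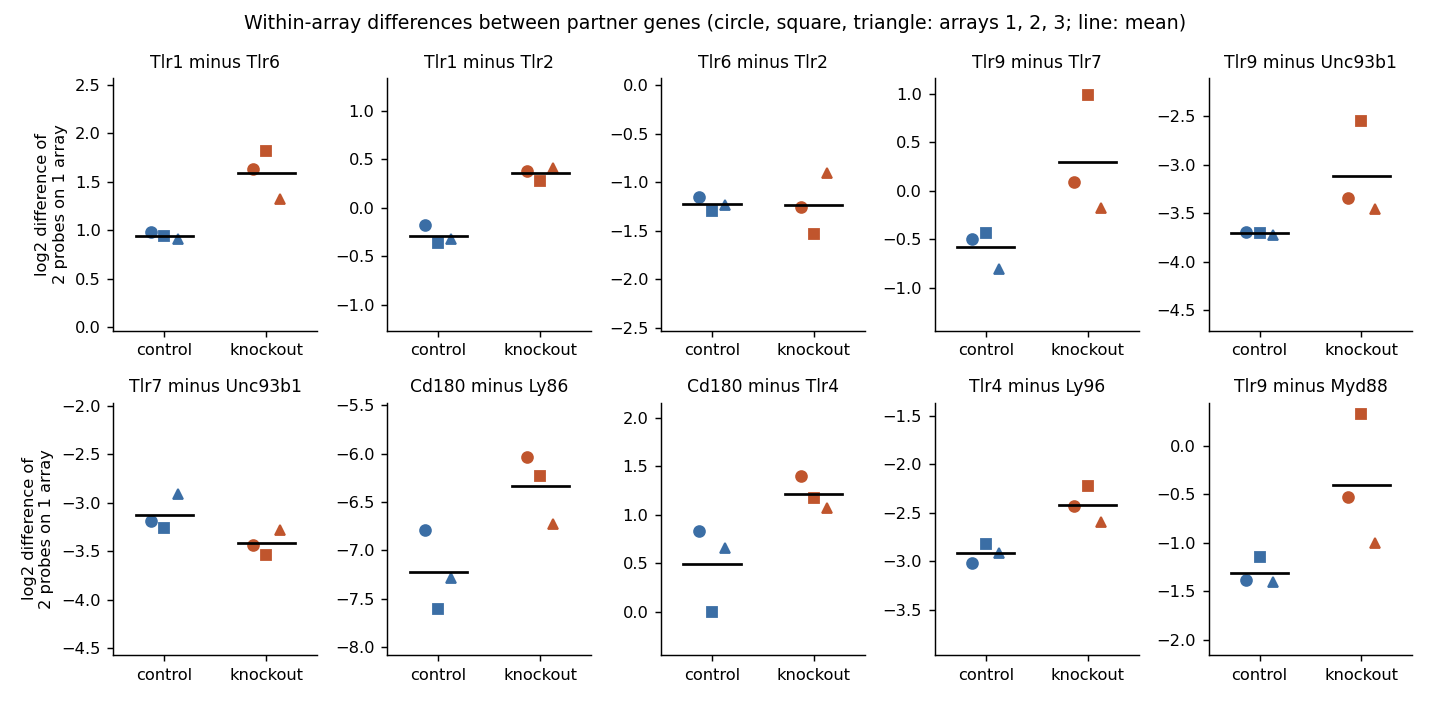
Each panel plots the log2 difference of 2 probes on the same array (vertical axis) for the 3 control and 3 knockout arrays, with lines at the means and the same span in all panels. Tlr1 minus Tlr2 lies between -0.36 and -0.17 in the control and between 0.28 and 0.41 in the knockout, while Tlr6 minus Tlr2 overlaps.

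The other genes of the pathway were read from 5 lists with 97 genes, of which 82 had a tested probe, 100 probes in all. None passed the adjusted p. After normexp with the 75th percentile 32 did, with trend and robust estimation 3 and with array weights 1, Cd36, against 37.7%, 3.96% and 1.86% of all tested probes, so none of these shares was above that of the array. In the main setting 26 had an unadjusted limma p under 0.05, against 24.6% of all tested probes, and the smallest adjusted p was 0.0859. Of the 100 probes, 71 were lower in the knockout, and the median of the lists was -0.20 against -0.09 over all tested probes. The share of all tested probes that were lower is not given here, so this count and those of the single lists cannot be set against it. The median of all tested probes depended on the scaling and was 0.00084 when scaled on the median of detected probes. The 2-fold thresholds were passed by 2 of the 100 probes, those of Cd36 and Irf7, against 3.64% of all tested probes. Cd36, a lipid scavenger receptor that assists Tlr2 and Tlr6, was -0.19, -0.49 and -0.49 in the controls and -1.93, -1.63 and -1.22 in the knockouts, a difference of -1.20 (adjusted p = 0.0859) with no overlap, and -0.49 after normexp with the 75th percentile, under 2-fold. Irf7, the transcription factor that drives interferon genes downstream of Tlr7 and Tlr9, was -3.22, -3.26 and -2.72 in the controls and -2.18, -1.25 and -1.81 in the knockouts, a difference of 1.32 (adjusted p = 0.0925). Irf7 was dim, and its processed signal before scaling was 28, 26 and 41 in the controls and 29, 28 and 46 in the knockouts. The Irf7 difference was 1.11 with quantile normalization and 0.30 with normexp and quantile normalization. It kept its direction in all 19 alternatives, some of which cannot change a difference. The part of array brightness in it was not tested.

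Among partners and factors for folding and transport, 19 of 22 tested probes were lower in the knockout, with a median of -0.24, and 1 of the 19, Tmed7, passed the filter through the control arrays alone. Of the 22, 7 were lower without overlap, against 19.5% of all tested probes. Hsp90b1 (gp96), the chaperone that folds most TLRs, was 6.11, 6.29 and 6.71 in the controls and 5.67, 5.79 and 6.09 in the knockouts (log2 difference -0.52, SE 0.21, 95% interval -1.01 to -0.034, limma adjusted p = 0.187). Cnpy3, its co-chaperone for TLRs, was 3.79, 3.60 and 3.84 in the controls and 3.33, 3.21 and 3.47 in the knockouts, a difference of -0.41 (adjusted p = 0.170). Both were lower on every knockout array than on any control array. Ctsb, an endosomal protease, was 5.36, 5.22 and 5.38 in the controls and 4.60, 4.96 and 4.74 in the knockouts, a difference of -0.55 (adjusted p = 0.124) with no overlap. Cells that secrete antibody are rich in folding factors, the plasma cell gene Xbp1 was lower as well, 5.15, 5.32 and 5.54 in the controls and 4.55, 4.90 and 4.99 in the knockouts, and the part of such cells in the values of Hsp90b1 and Cnpy3 was not tested.

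Among adaptors and kinases, 28 of 37 tested probes were lower, with a median of -0.27. Of the 37, 8 were lower and 5 higher without overlap, near the 19.5% and 15.6% of all tested probes. Ticam1, the adaptor of Tlr3 and Tlr4, was 2.20, 2.54 and 2.55 in the controls and 1.97, 1.86 and 2.09 in the knockouts, a difference of -0.46 (adjusted p = 0.160). Tirap, the bridge between the surface TLRs and Myd88, differed by -0.13 and overlapped. Irf5, which Myd88 activates to induce cytokines, differed by -0.41 (adjusted p = 0.247) and overlapped. The kinases that Myd88 recruits gave unequal values by probe. Irak4 was -0.52, -0.54 and -0.33 in the controls and 0.17, 0.19 and 0.22 in the knockouts by the probe A_52_P166266 (difference 0.66, adjusted p = 0.0967), and its probe A_52_P67440 gave -0.33. The 3 probes of Irak1 gave -0.42, -0.27 and -0.052, while the 2 probes of Irak2 gave 0.26 with overlap and 0.55 without. The 2 probes of Traf6, the ubiquitin ligase that follows these kinases, gave -0.53 and -0.18. The first, A_52_P510215, gave -0.16 after normexp with the 75th percentile. Of the 3 probes of Map3k7 (TAK1), A_52_P175952 gave 0.67 without overlap, and the others -0.12 and 0.093. Ikbkg (NEMO) differed by -0.55 without overlap and, by its probe A_55_P2050652, by -0.33 with overlap. A gene whose probes disagree has no single direction here.

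Among negative regulators, 12 of 18 tested probes were lower, with a median of -0.19. Cyld, a deubiquitinase that restrains NF-κB, was 2.35, 1.78 and 2.25 in the controls and 2.62, 2.70 and 2.60 in the knockouts, a difference of 0.51 (adjusted p = 0.165) with no overlap, while its probe A_55_P2015277 gave -0.28 with overlap. Rnf216, which marks TLRs for degradation, differed by -0.42 without overlap. Tollip, an inhibitor of Irak1, differed by -0.40 without overlap by A_52_P346458, and its other probes gave -0.10 and 0.24, both with overlap. Genes that TLR signals induce were even in direction, 11 higher and 11 lower of 22, with a median of 0.067. Tnf was -1.99, -1.99 and -1.30 in the controls and -1.10, -0.11 and -1.29 in the knockouts, a difference of 0.93 (adjusted p = 0.169), and Il10, the regulatory cytokine of B1a cells, was -1.16, -1.07 and -0.90 in the controls and -0.29, -0.34 and -0.89 in the knockouts, a difference of 0.54 (adjusted p = 0.170). Neither overlapped, though in both the closest arrays of the genotypes nearly met. The Tnf difference ran from 0.45 to 1.16 over the alternatives. It passed the 2-fold thresholds scaled on the median of detected probes and without control 3, knockout 1 or knockout 3. Gadd45b and the costimulator Cd40 differed by -0.59 and -0.57 without overlap. The chemokine Ccl4, named after its values were seen because it had the list's largest difference, was -3.43, -3.41 and 1.07 in the controls and -1.30, 3.62 and -1.22 in the knockouts, high on control 3 and knockout 2, with an overlap (adjusted p = 0.385). Knockouts 1 and 3 lay above controls 1 and 2, and without control 3 the difference was 3.79 and passed the 2-fold thresholds.

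Of the remaining TLRs of the mouse, Tlr5, Tlr8 and Tlr11 were not well above background on any array, and Tlr12 was on 2 arrays of each genotype and not tested. Tlr13, a receptor for bacterial ribosomal RNA, was 0.049, -0.24 and -0.035 in the controls and -0.81, 0.47 and -0.75 in the knockouts (log2 difference -0.29, SE 0.34, 95% interval -1.09 to 0.51, limma adjusted p = 0.592). Like Cd14, Tlr13 was highest on knockout 2, and without that array its difference was -0.71.

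**Figure D5:**
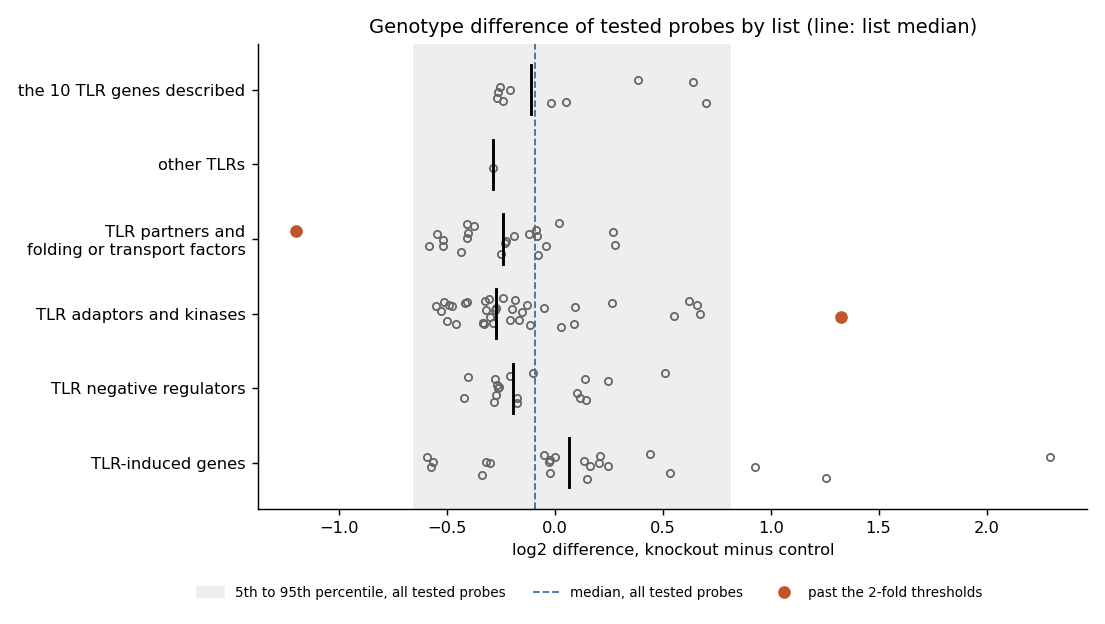
The log2 difference, knockout minus control, of every tested probe of the 10 genes described and of the 5 pathway lists (rows); black lines are list medians, the dashed line is the median of all tested probes and the grey band their 5th to 95th percentile (-0.65 to 0.81). Cd36 and Irf7, the filled points, passed the 2-fold thresholds, and the list medians run from -0.29 to 0.067.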

How the data were processed

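The authors deposited, per the labels and file headers, Cy3 spot intensity of 6 one-colour Agilent mouse arrays from Feature Extraction 10.7.1.1, as processed signal (background subtracted, not scaled between arrays), mean and background intensity, and a table of log2 values that are quantile normalized. From the processed signal, log2 was taken, spots marked as outliers were dropped, the 75th percentile of 59305 non-control spots was subtracted and replicate spots were averaged. Testing required signal well above background on the 3 arrays of either genotype and values on 2 or more arrays of both. The genotype effect came from limma 3.58.1 (R 4.3.3) with no covariate, with Benjamini-Hochberg adjustment over 24757 probes. The p-values measure the spread between these pooled samples, and the number of arrays limits the precision. The 6 arrays shared 1 slide and 1 scan.

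The labels do not say what a replicate number marks, and the main fit does not use it. Same-numbered arrays deviated together from their group means (r = 0.105 to 0.211 in 3 pairs), so the number was used as a block in an alternative fit. The pairing comes from the data. With the replicate number as a block, 1 probe in all passed the adjusted p, against 20 without it, and no member did in either.

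The members, the gene lists and the rule for named genes were chosen with earlier results of these data known. The rule names all members, 12 direct partners, every pathway gene past a threshold, and the 2 largest rises and falls of each list among non-overlapping probes. Coordinates are mm9 as in the array files. All 10 symbols were found in the RefSeq table (GRCm38.p6, names alone). The fit was tested on simulated data with known changes. Alternatives were quantile normalization, scaling on the median of detected probes, normexp (offset 50), the deposited values, other filters, outlier spots kept, 1 probe per gene, the methods' t-test, array weights, eBayes with trend and robust estimation, a replicate block and each array left out.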

Additional observations from a re-analysis of the deposited data

How the results depend on the processing

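Under 19 alternatives, 181 of 189 values of the member probes kept their direction, and the count of members past the 2-fold thresholds stayed at 0. The count past the adjusted p was 0 in all alternatives but normexp with the 75th percentile, where it was 1 (Myd88). The cause was not tested. Leaving out 1 array gave 0 for both. The direction reversed for the 2 members nearest to 0. Tlr4 (-0.017) was 0.074 scaled on the median of detected probes, 0.014 with normexp and the 75th percentile, 0.081 with array weights, and -0.15 to 0.10 with 1 array left out, positive without control 1 (0.018), control 2 (0.020) or knockout 3 (0.10). Unc93b1 (0.052) was -0.29 with normexp and the 75th percentile, and -0.042 without knockout 1, in a range of -0.042 to 0.11. The Tlr9 difference ranged from 0.39 to 0.87 with 1 array left out, that of Cd180 from 0.47 to 0.90, that of Tlr1 from 0.23 to 0.48, that of Tlr6 from -0.39 to -0.069, that of Tlr2 from -0.40 to -0.15, that of Myd88 from -0.34 to -0.15, and those of the Tlr7 probes A_55_P2050932 and A_55_P2129047 from -0.29 to -0.097 and from -0.32 to -0.15. Over the other alternatives Tlr9 ranged from 0.32 to 0.82, Cd180 from 0.46 to 0.79, Tlr1 from 0.10 to 0.56, Tlr2 from -0.48 to -0.082, Tlr6 from -0.35 to -0.091 and the Tlr7 probes from -0.41 to -0.0100 and from -0.47 to -0.053.

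Of pathway probes, 0 passed the adjusted p, and 32 with normexp and the 75th percentile, 3 with trend and robust estimation and 1 with array weights. The 2-fold thresholds were passed by 2, Cd36 and Irf7, and by 1 with normexp and the 75th percentile, which was Ccl4, with Cd36 (-0.49) and Irf7 (0.79) under 2-fold there. The count was 0 with normexp and quantile normalization, 8 without a filter (16 more, dim probes were counted) and 2 to 4 with 1 array left out, 4 without control 3. Cd14 (-0.085) reversed to 0.0064 scaled on the median of detected probes, 0.021 with normexp and quantile normalization, and 0.19, 0.072 and 0.35 without control 1, knockout 1 or knockout 3, in a range of -0.68 to 0.35. The Ikbkg probe A_51_P260300 and the Tollip probe A_55_P2133047 reversed to 0.081 and 0.090 with normexp and the 75th percentile. The Map3k7 probe A_55_P2049086 was 0.097 with quantile normalization, 0.076 with normexp and quantile normalization, 0.077 in the deposited values and -0.22 to 0.0017 with 1 array left out, and its probe A_55_P2127804 -0.13 to 0.24, negative without control 2. The Irak1 probe A_55_P2153862 (-0.052) was 0.099 with quantile normalization, 0.039 scaled on the median of detected probes, 0.12 with normexp and quantile normalization, 0.093 in the deposited values and 0.11 without control 2, in a range of -0.25 to 0.11 with 1 array left out. The Traf6 probe A_55_P1998380 (-0.18) was 0.0032 with quantile normalization and 0.0082 with normexp and quantile normalization. The cause of these reversals was not tested. The replicate block changed no call of a member or pathway probe.

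Over all probes, 20 passed the adjusted p, and the count moved to 9334 with normexp and the 75th percentile, 980 with trend and robust estimation, 461 with array weights, 96 with the filter on all 6 arrays, 55 with normexp and quantile normalization, 7 with 1 probe per gene, 6 with quantile normalization or the deposited values, 2 without a filter, 1 with the methods' t-test and 2 to 115 with 1 array left out, 115 without knockout 3. The share of 2-fold calls that were higher in the knockout was 65.4%, and 44.4% with quantile normalization, 43.2% in the deposited values, 78.4% scaled on the median of detected probes, 81.3% with normexp and quantile normalization, 84.5% with the filter on all 6 arrays, 98.2% without a filter, 57.9% with normexp and the 75th percentile, 54.6% with array weights and 50.9% without knockout 2. Signal over background limits Tlr3 and 1 probe of Tlr7.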
